A study of Mus musculus with 8 samples.

Results

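The genes described here are the drug- and aldehyde-metabolising enzymes of 4 large families, read in mouse pancreatic tumours. They were taken by symbol, in a group set with earlier results of these data known. The symbols were those of cytochrome P450 genes (Cyp followed by a number, a letter and a number) and glutathione S-transferase genes (Gst). UDP-glucuronosyltransferase genes (Ugt) and aldehyde dehydrogenase genes (Aldh) were taken too. The arylacetamide deacetylase gene Aadac was added by name, and the sterol-synthesis gene Cyp51 was left out. In the table of 19129 genes, 84 genes fitted: 37 Cyp, 19 Gst, 9 Ugt and 18 Aldh genes, and Aadac. The GENCODE M21 annotation holds 159 protein-coding genes that fit, and the other genes were not analysed here. Of the 84, 43 lay below the median gene's mean value, which is close to the share of all genes, 9565 of 19129.

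RNA was extracted from freshly taken pancreatic tumour isografts, which are tumours grown from cells transplanted into mice of the same inbred background, and stranded libraries of total RNA were sequenced. The series holds 8 mice: 4 controls, and 4 treated for 7 days with trametinib, an inhibitor of the MEK kinases that activate ERK (labelled MEKi). The sources used here do not give what the controls received, the tumour line, or the strain, age and sex of the mice. Where values of 4 libraries are listed below, they stand in the order of replicates 1 to 4. The p-values below measure the spread between these 8 tumours.

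Cytochrome P450 enzymes oxidise drugs, steroids, fatty acids and retinoids in the endoplasmic reticulum or mitochondria, with electrons passed on by partner proteins such as the reductase Por. Glutathione S-transferases couple reactive compounds to glutathione, UDP-glucuronosyltransferases add a sugar acid that makes a compound easier to excrete, and aldehyde dehydrogenases turn aldehydes, retinaldehyde among them, into acids. Liver and intestine are the organs best known for these enzymes, and many of the genes are controlled by the nuclear receptors, by the aryl hydrocarbon receptor (AHR) or by the oxidative-stress factor encoded by Nfe2l2.

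The deposited values are on a variance-stabilised log2 scale, in which 5.115 stands for 0 reads, and a difference of 1 is close to a 2-fold difference for well-covered genes and understates the fold of genes with few reads. Reads assigned to genes ranged from 20090101 to 38569550 a library. Acinar-cell markers, which report normal exocrine pancreas, stood apart in control replicates 2 and 3: the normalised reads of the 12 markers summed to 5169 to 3590900 in controls and to 313 to 61476 in the libraries labelled MEKi. The 10 duct markers summed to 290150 to 345350 normalised reads in controls and 274460 to 347150 under MEKi, a sum carried by Spp1 and the keratins. MEKi 4 stood apart in other duct markers: the chloride channel gene Cftr was at 6.76 there and at 10.96 to 11.79 elsewhere, Epcam at 10.70 and 12.66 to 13.10, and Cldn4 at 7.32 and 8.91 to 9.23. Its acinar sum of 61476 was above that of every library other than controls 2 and 3, the next being 13583 in control 1. The members called between the labels numbered 0 with and without MEKi 4. The ERK target Dusp6 was 12.19, 12.14, 9.31 and 9.24 in controls and 8.88, 12.12, 12.20 and 11.01 under MEKi, so it did not separate the labels (limma, difference 0.33, SE 0.90, adjusted p = 0.9996). "MEKi" below therefore means the libraries labelled so.

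None of the 84 genes passed the test between the labels. Tested with limma across all 19129 genes at an adjusted p threshold of 0.05, 0 members passed, and 0 passed with limma's voom on the recovered reads, against 0.00523% of all genes in either test. At an unadjusted p under 0.05 there were 2 members with lower MEKi values, Ugt8a and Cyp26b1, and 0 with higher ones, where 1.30% of all genes lay lower and 0.465% higher, or 1.77% in all. With voom 2 members were counted, where 1.99% of all genes did. The MEKi mean was above the control mean for 39 members and below it for 45, and among all genes it was above for 51.6%. The median difference over the members was -0.0069 on the log2 scale, beside 0.0055 over all genes, and 80 of the 84 differences were smaller than 0.5 in size. In the plot of differences, only Aldh1l2, Ugt8a, Cyp26b1 and Aldh1a2 lie outside that band, all on the lower side.

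**Figure D1:**
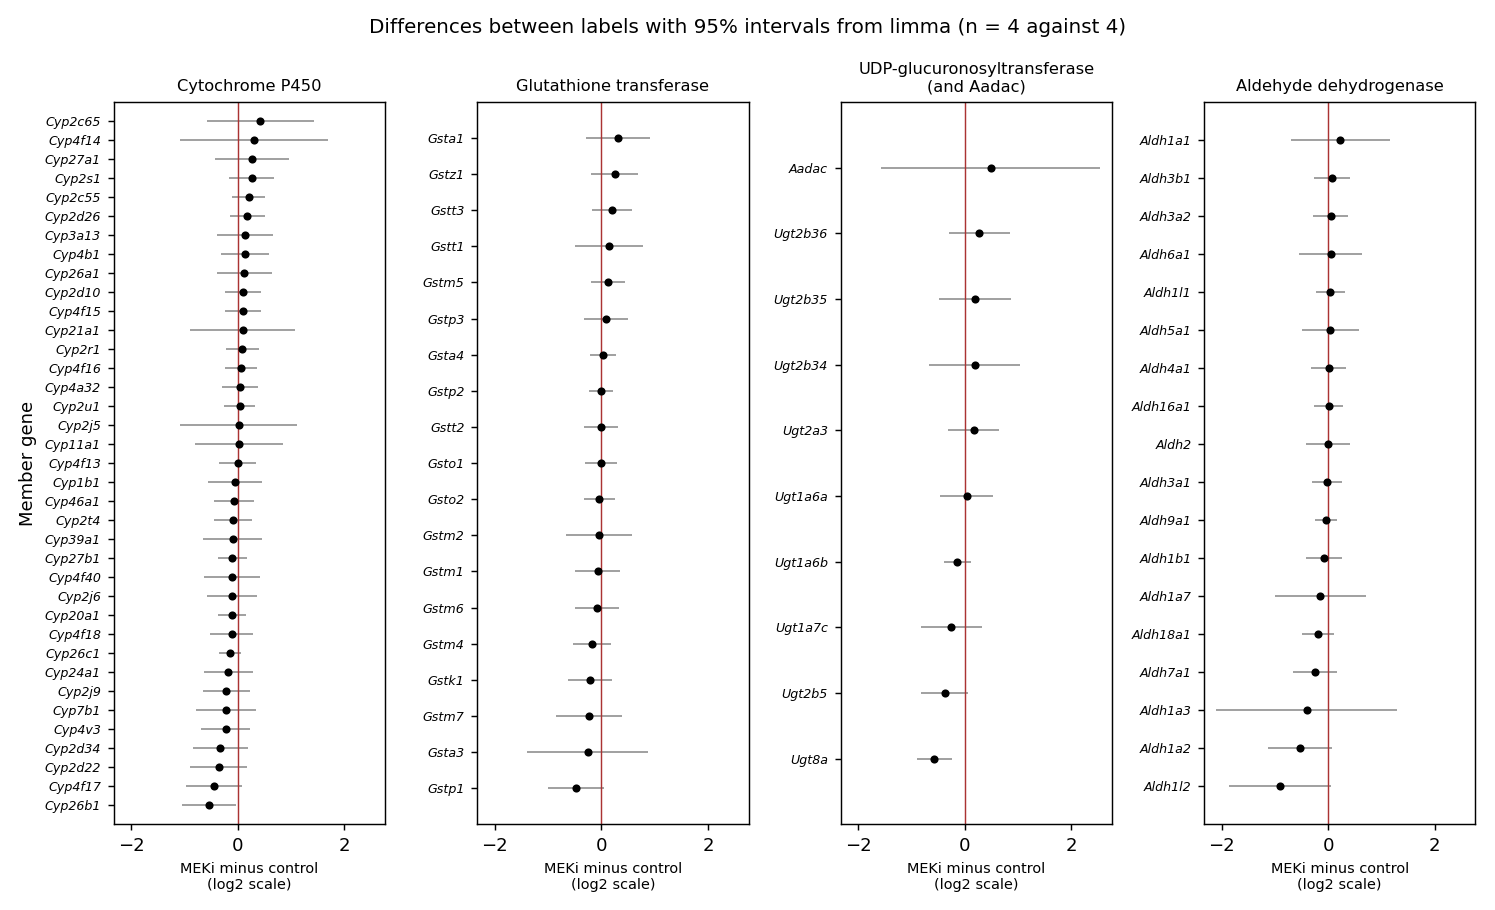
MEKi minus control difference of each of the 84 genes on the log2 scale with its 95% confidence interval from limma, grouped by family, with Aadac in the Ugt panel. The points run from -0.90 for Aldh1l2 to 0.48 for Aadac, and no gene passes the adjusted threshold.

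Some of these genes varied widely from tumour to tumour over the 8 libraries. The value spanned more than 2 log2 units over the 8 libraries for 7 of the 84, or 8.33%, beside 3.11% of all genes. This count includes Aadac, which was added to the group by name with earlier results of these data known. The genes counted were Aadac, Aldh1a3, Cyp4f14, Aldh1l2, Cyp2c65, Gsta3 and Aldh1a1. The median span was 0.91 over the members and 0.62 over all genes. No test was made of this comparison of spans, and in bulk tumour fewer cells of a type and less RNA per cell cannot be told apart.

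**Figure D2:**
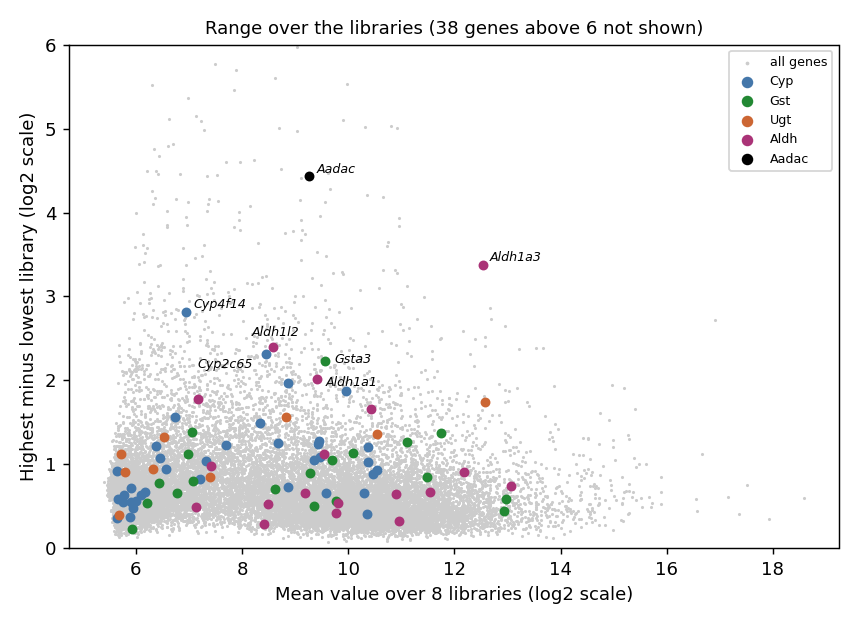
Highest minus lowest library value of each gene against its mean over the 8 libraries, both on the log2 scale, with all 19129 genes in grey and the members in colour (38 genes above a span of 6 are not drawn). Aadac at 4.43 and Aldh1a3 at 3.37 are the members with the widest span.

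Aadac had the widest span of the members. It encodes an endoplasmic reticulum deacetylase of liver and intestine that hydrolyses arylacetamide drugs and takes part in lipid handling, and the gene lies on chromosome 3 from 60025717 to 60040160 on the plus strand (GRCm38, GENCODE M21). Its value was 8.04, 7.19, 10.49 and 10.39 in controls and 9.76, 8.56, 8.11 and 11.63 under MEKi. The reads behind them numbered 178, 99, 995 and 1052 in controls and 874, 244, 258 and 4847 under MEKi. MEKi replicate 4 was highest, 1.14 above the next library, control 3, and control 2 was lowest, and the groups overlapped. Corrected for library size, the highest library held 36.2 times the lowest. The group means were 9.03 ± 1.67 (SD, n = 4) in controls and 9.51 ± 1.57 (SD, n = 4) under MEKi, a difference of 0.48 with a 95% interval of -1.56 to 2.53. Without MEKi replicate 4 the difference was -0.22, so that 1 library set its sign.

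The 4 libraries in which Aadac was lowest were control 2, control 1, MEKi 3 and MEKi 2, which are also the 4 in which Dusp6 was highest. This likeness to Aadac, having the same 4 lowest libraries of 8, was found in 18 of the 83 other members, or 21.7%, and in 7.38% of all genes. They were 9 Cyp genes (Cyp2c65, Cyp2d10, Cyp2j5, Cyp2j6, Cyp2j9, Cyp4f14, Cyp11a1, Cyp21a1 and Cyp26a1), 4 Gst genes (Gstm1, Gstm2, Gstm7 and Gstt1), 4 Ugt genes (Ugt1a6a, Ugt1a7c, Ugt2b34 and Ugt2b36) and Aldh5a1. The reverse order, highest in those 4 libraries, was found in 4 members, Aldh1a3, Aldh2, Gstm6 and Gsto1, or 4.82%, beside 6.59% of all genes. The pattern was noticed in these data and is given as a description, and the genes in it are measured in the same libraries and are not independent of each other.

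**Figure D3:**
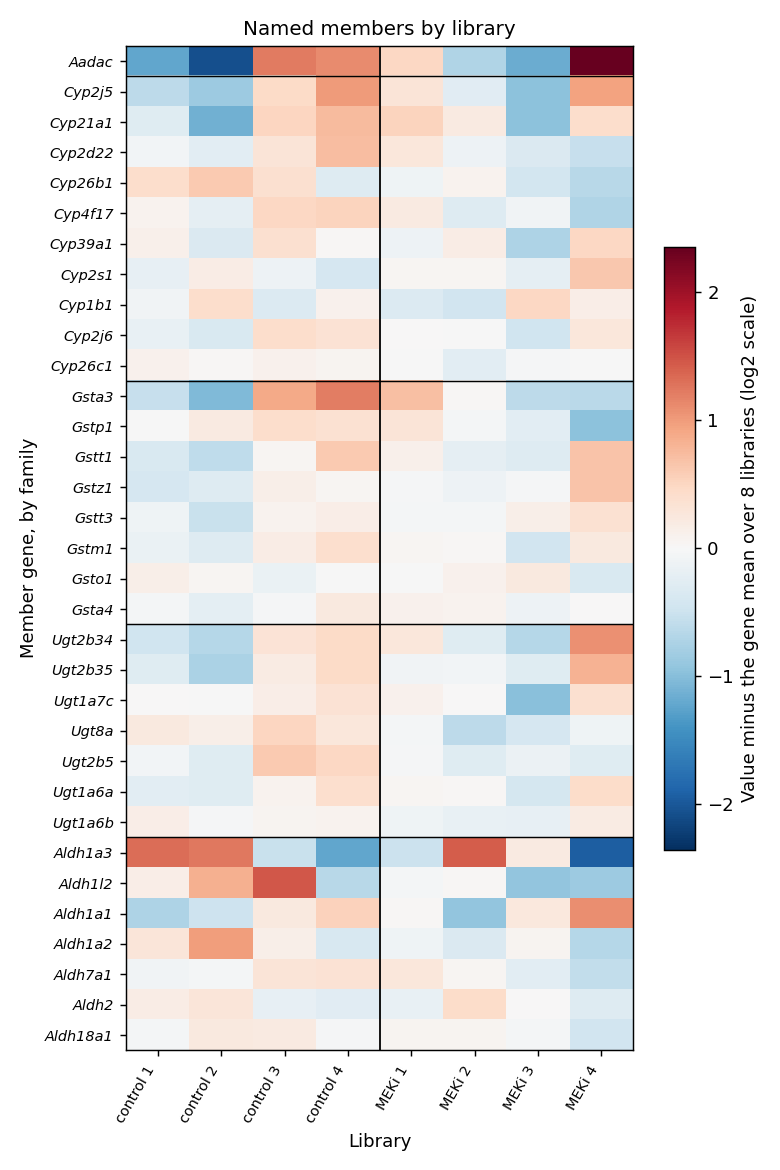
Value of Aadac and of the leading members of each family (highest, widest-ranging or with the smallest p) in each of the 8 libraries, as the colour-coded difference from the gene's own mean on the log2 scale. Aadac, Ugt2b34 and Aldh1a1 are highest in MEKi 4, and Aldh1a3 is lowest there.

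MEKi 4, the tumour with most Aadac, was at an extreme for many genes, members or not. It was the highest library for 25 members, or 29.8%, beside 23.2% of all genes, and the lowest for 23, or 27.4%, beside 21.6%. Control 4 was highest for 19 members, or 22.6%, beside 10.4% of all genes, and lowest for 2. By family, MEKi 4 was highest for 7 of the 9 Ugt genes, 8 of the 37 Cyp genes, 4 of the 19 Gst genes and 5 of the 18 Aldh genes. Members whose MEKi 4 value stood more than 0.5 above the next library were Aadac, Cyp2c65, Cyp4f14, Cyp3a13, Cyp4b1, Ugt2b34, Aldh1a1 and Gstz1, which is 8 of 84 with Aadac counted, and 2.86% of all genes did the same. Those more than 0.5 below the next library were Aldh1a3, Gstp1 and Cyp4v3, which is 3 of 84, beside 2.89% of all genes.

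Markers of other organs rich in these enzymes were uneven. Of the 12 hepatocyte markers, 6 were in the table analysed here, and their normalised reads summed to 515 to 1052 in controls and 410 to 1593 under MEKi, highest in MEKi 4. Transthyretin, Ttr, which pancreatic islets also make, carried that: it was 10.23 in MEKi 4 and 7.58 to 8.92 in the other libraries, and without it the sum was 453 there and 277 to 633 in the others. Apoa2 was lowest in MEKi 4, at 5.63. Ambp lay below all controls in every MEKi library, at 8.06 to 8.48 against 8.58 to 9.17, with MEKi 4 at 8.30. Albumin, Alb, was at 7.21 in MEKi 4, at or below 6.50 in the other libraries, and at the floor of 5.115 in MEKi 2 and MEKi 3. Of the 10 enterocyte markers, 8 were in the table, with sums of 4362 to 6014 in controls and 4484 to 5266 under MEKi, a sum carried mostly by Vil1. The intestinal phosphatase Alpi had 350 reads in MEKi 4 and 0 to 52 in the others. Anpep went the other way, lowest in MEKi 4 at 9.32 and at 9.54 to 10.83 elsewhere. Slc5a1 lay below all controls in every MEKi library, at 5.115 to 5.98 against 6.24 to 6.89, with MEKi 4 at 5.86. Gastric surface markers, with all 10 present, summed to 12098 to 23159 in controls and to 12377 to 17913 under MEKi, with Ctse at 12.86 to 13.38. The mucin Muc5ac had 227 reads in MEKi 4 and 2 to 18 in the others. Tff1, Tff2 and Anxa10 went the other way and were lowest in MEKi 4, at 5.31, 8.60 and 9.58. The part of these cell types, and of the duct and acinar markers above, in the MEKi 4 values was not tested.

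The promoters of 4 genes are shown because these genes stand for the patterns described. Aadac was taken for its wide span and Cyp2c65 for the 4 lowest libraries it shares with Aadac. Gsta3 was taken as a glutathione transferase, and Cyp1b1 as a textbook AHR target. Each window runs from 250 bases before to 50 bases after the RefSeq transcription start (GRCm38.p6), printed on the gene's own strand. The positions are chr3:60031538-60031837 on the plus strand for Aadac, chr19:39060756-39061055 on the plus strand for Cyp2c65, chr1:21240335-21240634 on the plus strand for Gsta3, and chr17:79715012-79715311 on the minus strand for Cyp1b1. Capitals mark the AHR core GCGTG or the antioxidant response core TGACNNNGC, searched on both strands, which can overlap each other in the letters GC.
Aadac: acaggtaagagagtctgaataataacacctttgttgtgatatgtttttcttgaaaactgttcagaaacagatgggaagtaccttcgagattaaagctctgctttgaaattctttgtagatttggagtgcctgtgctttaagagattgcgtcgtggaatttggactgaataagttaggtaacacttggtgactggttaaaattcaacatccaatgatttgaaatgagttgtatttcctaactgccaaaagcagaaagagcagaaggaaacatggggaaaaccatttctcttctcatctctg
Cyp2c65: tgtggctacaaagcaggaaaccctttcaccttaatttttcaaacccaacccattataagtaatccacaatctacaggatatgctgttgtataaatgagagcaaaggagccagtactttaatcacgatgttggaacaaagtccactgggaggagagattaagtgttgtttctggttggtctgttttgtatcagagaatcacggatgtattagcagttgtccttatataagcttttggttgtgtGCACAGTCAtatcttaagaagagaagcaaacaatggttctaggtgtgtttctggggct
Gsta3: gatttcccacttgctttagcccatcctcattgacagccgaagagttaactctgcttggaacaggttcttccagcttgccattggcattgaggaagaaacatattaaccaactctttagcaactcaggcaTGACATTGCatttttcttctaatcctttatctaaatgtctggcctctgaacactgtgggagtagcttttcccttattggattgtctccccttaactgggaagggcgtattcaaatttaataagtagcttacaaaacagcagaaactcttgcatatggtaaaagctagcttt
Cyp1b1: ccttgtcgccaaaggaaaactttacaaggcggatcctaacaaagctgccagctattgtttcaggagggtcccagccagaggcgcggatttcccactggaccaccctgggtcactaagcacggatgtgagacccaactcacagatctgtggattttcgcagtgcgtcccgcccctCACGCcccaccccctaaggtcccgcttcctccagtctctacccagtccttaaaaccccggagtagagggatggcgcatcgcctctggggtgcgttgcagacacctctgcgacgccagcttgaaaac
The Aadac window, which lies inside the gene as GENCODE annotates it, held neither core. The windows of Cyp2c65 and Gsta3 each held 1 antioxidant response core, and that of Cyp1b1 held 1 AHR core. Promoter windows were found for 68 of the 84 members, 83 windows in all. GCGTG was in 21 of them, or 25.3%, beside 32.4% of all 32851 windows, and TGACNNNGC was in 9, or 10.8%, beside 12.4%. These shares describe letters in the windows and say nothing about binding.

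Among the cytochrome P450 genes, 0 of 37 passed the test, 18 had a higher and 19 a lower MEKi mean, and the median difference was -0.0046. Levels of different genes were compared as normalised reads per kilobase of exon. On that scale the Cyp genes with the highest median over the libraries were Cyp20a1, an orphan enzyme without an established substrate, at 567, the steroid hydroxylase Cyp21a1 at 549, and the oxysterol hydroxylase Cyp39a1 at 439. All 14 members in the xenobiotic group (8 higher and 6 lower in mean, median difference 0.02), all 10 of the fatty acid group (5 and 5, median 0.02) and all 4 of the sterol group (1 and 3, median -0.08) were without a call.

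Cyp2c65, a P450 of the gut that oxidises arachidonic acid, read 7.83, 7.69, 8.60 and 8.86 in controls and 8.54, 8.20, 7.90 and 10.01 under MEKi. It had the same 4 lowest libraries as Aadac, with MEKi 4 alone above 9, and the highest library held 6.72 times the lowest. Its difference between labels was 0.42 (SE 0.45, 95% interval -0.59 to 1.42). With MEKi 4 left out, the mean of the remaining MEKi libraries lay below the control mean of 8.25, so that 1 library set its sign. Of the 50-base windows in its exons, 20.7% also occur in another gene, most of them in Cyp2c66, so some reads could have been split between the pair.

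Cyp4f14, a fatty acid omega-hydroxylase that also inactivates leukotriene B, read 5.996, 6.14, 7.43 and 7.60 in controls and 7.34, 5.98, 6.26 and 8.80 under MEKi. Here too MEKi 4 was highest, by 1.198, and the 4 low libraries lay between 5.98 and 6.26. The highest library held 29.7 times the lowest, which was MEKi 2 with 10 reads, and the difference between labels was 0.30 (SE 0.62). With MEKi 4 left out, the mean of the remaining MEKi libraries lay below the control mean of 6.79, so that 1 library set the sign here as well. Cyp4f13, the next member along chromosome 17, was also highest in MEKi 4, at 10.04. Cyp4f17, at the other end of the same run, was lowest in MEKi 4, at 6.99, with controls at 7.77, 7.49, 8.19 and 8.22 and the other MEKi libraries at 7.90, 7.39 and 7.61, a difference of -0.45 (SE 0.24). The 6 Cyp4f genes in that run, from 32506050 to 32947402, thus did not share 1 order: 2 of the 6 were highest in MEKi 4 and 3 of the 6 had a higher MEKi mean.

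Cyp2j5 and Cyp2j6, epoxygenases that turn arachidonic acid into vasoactive lipids, lie in 1 run on chromosome 4 with Cyp2j9 between them. They had the same 4 lowest libraries as Aadac, though not the same highest library. Cyp2j5 read 8.24, 8.00, 9.31 and 9.87 in controls and 9.17, 8.60, 7.90 and 9.82 under MEKi. Both groups held high and low tumours, and the means of 8.86 ± 0.88 and 8.87 ± 0.82 (SD, n = 4 each) were almost equal. Cyp2j6 spanned 10.01 to 10.89 over all libraries, with MEKi 3 lowest and control 3 highest, and a difference of -0.10 (SE 0.21).

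Cyp21a1, which hydroxylates progesterone on the way to corticosteroids, read 9.67, 8.83, 10.47 and 10.70 in controls and 10.48, 10.17, 9.002 and 10.37 under MEKi. Control 2 and MEKi 3 were the low tumours, and the difference was 0.09 (SE 0.44, 95% interval -0.90 to 1.07). Cyp11a1, the enzyme that opens steroid synthesis from cholesterol, was far lower per kilobase, at a median of 12.0 normalised reads beside 549 for Cyp21a1. Of the 8 adrenal cortex markers, 5 were in the table, with sums of 1452 to 1844 in controls and 1439 to 2029 under MEKi. Part of Cyp21a1, 21.3% of its windows, is shared with the pseudogene Cyp21a2-ps.

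Cyp1b1, a classical AHR target that oxidises polycyclic hydrocarbons and oestrogens, read 10.46, 10.97, 10.22 and 10.66 in controls and 10.23, 10.11, 11.04 and 10.71 under MEKi. The groups overlapped throughout, with a difference of -0.05 (SE 0.23). Cyp2s1, an epithelial P450 also described as an AHR target, was highest in MEKi 4 at 11.01 and lay between 9.98 and 10.55 elsewhere, with a difference of 0.26 (SE 0.19) that was 0.09 without MEKi 4. Cyp2d22, a relative of the human drug-metabolising CYP2D enzymes, ran from 8.92 in MEKi 4 to 10.19 in control 4, with a difference of -0.36 (SE 0.24).

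Retinoic acid, the active form of vitamin A, is made by the Aldh1a enzymes and broken down by the Cyp26 enzymes, and both sides were measured. Cyp26b1 read 9.09, 9.29, 9.06 and 8.37 in controls and 8.58, 8.76, 8.25 and 8.04 under MEKi. The first 3 controls lay above all MEKi libraries, and control 4 lay among them. The means were 8.95 ± 0.40 and 8.41 ± 0.32 (SD, n = 4 each), a difference of -0.55 (SE 0.23, 95% interval -1.06 to -0.03). The unadjusted limma p of 0.039 did not survive adjustment over all genes (adjusted p = 0.9996).

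Cyp26c1 was barely read, with 6, 6, 5 and 5 reads in controls and 5, 1, 5 and 7 under MEKi, and its values were 5.74, 5.67, 5.75 and 5.71 against 5.64, 5.39, 5.61 and 5.63. All MEKi values lay below all control values, as they did for 2 of the 84 members (2.38%) and 0.701% of all genes, while 0 members lay wholly above (0.565% of all genes). The gap at Cyp26c1 between the lowest control and the highest MEKi library was within the worth of a few reads. Cyp26a1, the retinoid hydroxylase best known as a retinoic acid target, ran from 6.06 to 7.00 and had a difference of 0.12 (SE 0.23).

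Aldh1a3, which makes retinoic acid from retinaldehyde, was the member with the widest span after Aadac and the reverse of it. It read 13.85, 13.77, 12.01 and 11.31 in controls and 12.03, 13.96, 12.75 and 10.59 under MEKi. The 4 libraries that were lowest for Aadac were the highest for Aldh1a3, and MEKi 4 was lowest. The highest library held 10.8 times the lowest, and the difference between labels was -0.40 (SE 0.76, 95% interval -2.10 to 1.30), which turned to 0.18 when MEKi 4 was left out.

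Its relatives had other orders of libraries. Aldh1a1, a broad retinaldehyde and aldehyde oxidiser often used as a stem-cell marker, read 8.68, 8.93, 9.64 and 9.95 in controls and 9.44, 8.49, 9.66 and 10.51 under MEKi. MEKi 4 was highest and MEKi 2 lowest, with a difference of 0.23 (SE 0.41). Aldh1a2, the retinoic acid enzyme of mesoderm and mesothelium, read 10.72, 11.42, 10.57 and 10.05 in controls and 10.33, 10.08, 10.49 and 9.76 under MEKi. Control 2 stood 0.70 above the next library, and the difference was -0.52 (SE 0.27, 95% interval -1.12 to 0.08). Without control 2 it was -0.28. Per kilobase of exon, the medians over the libraries were 1190 normalised reads for Aldh1a3, 574 for Aldh1a2 and 138 for Aldh1a1.

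**Figure D4:**
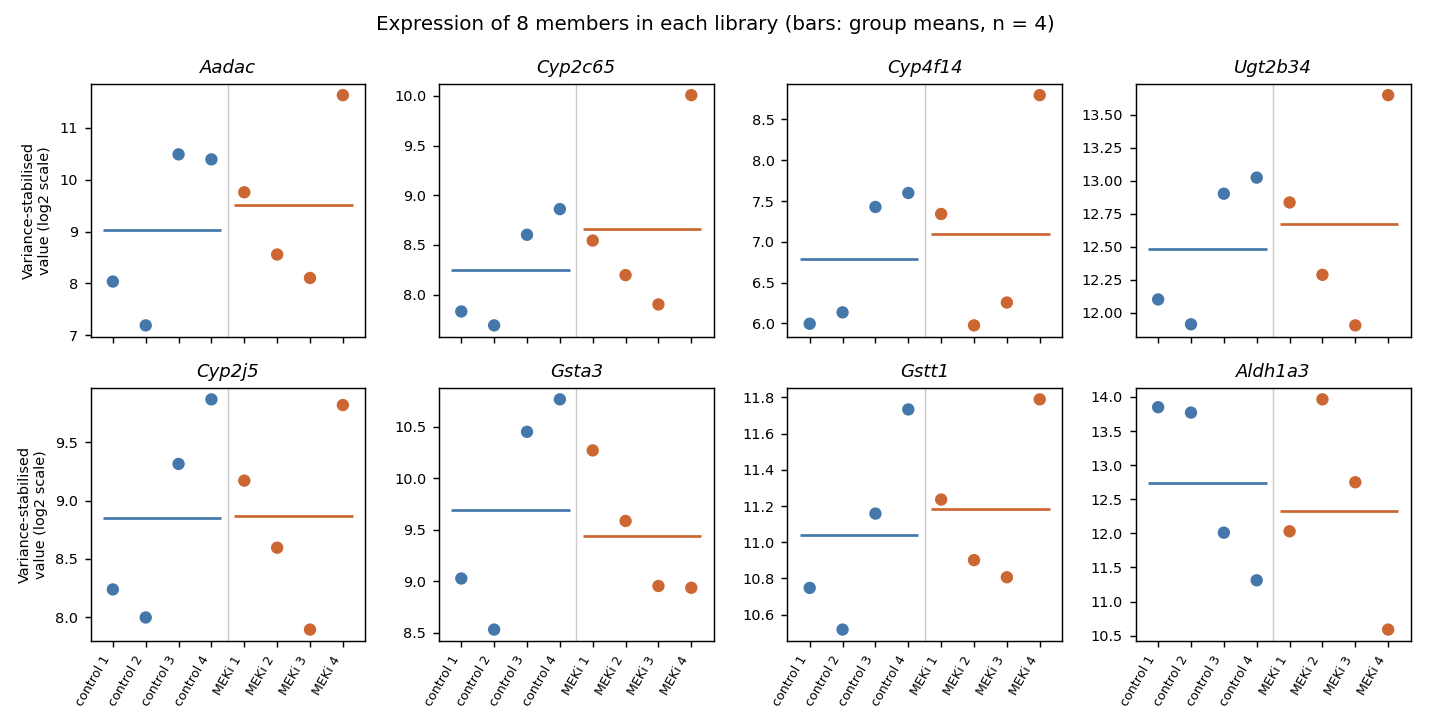
Deposited log2-scale values of selected members in the 8 libraries, 1 panel a gene, with 1 point a library (blue for controls, orange for MEKi) and a bar at each group mean. The points of the 2 labels overlap for Aadac, Aldh1a3 and Gsta3, and each label holds both high and low tumours.

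The other aldehyde dehydrogenases included the member with the largest difference. Aldh1l2, the mitochondrial enzyme of folate metabolism that oxidises formyl-tetrahydrofolate, read 8.74, 9.43, 10.06 and 7.94 in controls and 8.54, 8.62, 7.65 and 7.74 under MEKi. Controls 3 and 2 were highest, which are also the acinar-rich libraries, and control 4 lay among the MEKi values. The means were 9.04 ± 0.91 and 8.14 ± 0.51 (SD, n = 4 each), a difference of -0.90 (SE 0.43, 95% interval -1.86 to 0.05). With the acinar marker mean as a covariate the difference was -0.29, and without control 3 it was -0.56. The acinar markers themselves had a median difference of -4.03 between the labels, so this covariate cannot separate acinar cells from the label. The part of acinar cells in the Aldh1l2 values was not tested.

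Aldh2, the mitochondrial enzyme that clears acetaldehyde, and Aldh7a1 and Aldh18a1, which act in lysine breakdown and proline synthesis, were steadier. Per kilobase their medians were 1573, 882 and 730 normalised reads. Aldh2 spanned 12.76 to 13.50 and differed by -0.0092 (SE 0.18). Aldh7a1 spanned 11.60 to 12.51 and Aldh18a1 11.10 to 11.77, both lowest in MEKi 4, with differences of -0.26 (SE 0.18) and -0.19 (SE 0.13). Over the 18 Aldh genes 0 passed, 8 had a higher and 10 a lower MEKi mean, and the median difference was -0.01.

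Among the glutathione S-transferases, 0 of 19 passed, 7 had a higher and 12 a lower MEKi mean, and the median difference was -0.01. This family held the most abundant members. Per kilobase of exon the medians were 6104 normalised reads for Gsta4, which detoxifies the lipid peroxidation product hydroxynonenal, 4010 for the omega-class reductase Gsto1, 2371 for Gstp1 and 1945 for the mu-class Gstm1. Gsta4 read 12.88, 12.70, 12.91 and 13.15 in controls and 13.02, 13.00, 12.81 and 12.94 under MEKi. Its libraries lay within 0.44 of each other, and its difference was 0.03 (SE 0.11, 95% interval -0.22 to 0.28).

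Gsta3, an alpha-class enzyme known in mice for detoxifying aflatoxin, was the Gst gene with the widest span. It read 9.03, 8.53, 10.45 and 10.77 in controls and 10.27, 9.59, 8.95 and 8.94 under MEKi. Controls 1 and 2 and MEKi 3 were low and controls 3 and 4 and MEKi 1 high, as for Aadac, but MEKi 4 was among the low libraries. The highest library held 5.50 times the lowest, and the difference was -0.26 (SE 0.50).

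Gstp1, the pi-class transferase often raised in tumours, read 11.75, 11.96, 12.16 and 12.11 in controls and 12.06, 11.70, 11.51 and 10.79 under MEKi. MEKi 4 was lowest and MEKi 1 lay among the controls. The difference was -0.48 (SE 0.23, 95% interval -1.01 to 0.04), and it was -0.24 without MEKi 4. Its neighbour Gstp2 shares 54.3% of its windows with other genes and Gstp1 shares 33.7%, so reads between them are uncertain.

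Gstt1, a theta-class enzyme that acts on small halogenated compounds, had the same 4 lowest libraries as Aadac. It read 10.75, 10.52, 11.16 and 11.73 in controls and 11.24, 10.90, 10.81 and 11.79 under MEKi. The difference was 0.14 (SE 0.28), and the highest library held 2.48 times the lowest. Gstm1 spanned 11.02 to 11.88 with the same 4 low libraries and a difference of -0.07 (SE 0.19). Gstz1, which acts in tyrosine breakdown, read 9.29, 9.38, 9.83 and 9.74 in controls and 9.66, 9.57, 9.67 and 10.35 under MEKi, and the difference of 0.25 (SE 0.20) was 0.07 without MEKi 4. Gsta1 shares 90.5% of its windows with other genes, most with Gm3776, and its reads cannot be assigned to it with certainty.

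Among the UDP-glucuronosyltransferases, 0 of 9 passed, 5 had a higher and 4 a lower MEKi mean, and the median difference was 0.04. Ugt2b34, a glucuronosyltransferase of steroids and drugs, was the most abundant at a median of 1418 normalised reads per kilobase, ahead of Ugt1a7c at 354. Ugt2b34 read 12.10, 11.91, 12.90 and 13.02 in controls and 12.84, 12.29, 11.90 and 13.65 under MEKi. MEKi 4 stood 0.63 above the next library, the 4 low libraries were those of Aadac, and the highest held 3.40 times the lowest. The difference between labels was 0.18 (SE 0.38, 95% interval -0.67 to 1.04), and it was -0.14 without MEKi 4.

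The Ugt2 genes sit together on chromosome 5 between 86889767 and 87337195, and 4 of the 5 members there were highest in MEKi 4, as were all 3 Ugt1a members of chromosome 1 between 88095062 and 88220002. The fifth gene of the Ugt2 run, Ugt2b5, was highest in control 3 at 6.42 and differed by -0.38 (SE 0.20). It had few reads, 6, 3, 22 and 20 in controls and 8, 2, 6 and 4 under MEKi. Of its windows, 41.7% also occur in another gene, most of them in Ugt2b38. The Ugt1a genes are alternative first exons joined to shared last exons, and 53.7% of the windows of Ugt1a7c and 52.1% of those of Ugt1a6a occur in another gene, so they are not separate measurements. Ugt1a7c, which read 9.56 in MEKi 3 and 10.54 to 10.91 in the other 7 libraries, differed by -0.25 (SE 0.26).

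Ugt8a, which makes the myelin lipid galactosylceramide, had the smallest unadjusted p of the members and very few reads. They numbered 11, 11, 16 and 11 in controls and 6, 0, 1 and 7 under MEKi, for values of 5.96, 5.86, 6.23 and 5.995 against 5.68, 5.12, 5.34 and 5.63. All 4 MEKi libraries lay below all 4 controls. The difference was -0.57 (SE 0.15, 95% interval -0.90 to -0.24), with an unadjusted limma p of 0.0034 and an adjusted p of 0.9996.

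Summed over each family, the normalised reads followed different orders of tumours. The Ugt sum was 6235, 5558, 9914 and 10996 in controls and 9389, 6916, 4911 and 15804 under MEKi. The Aldh sum was 40924, 43403, 31779 and 27914 in controls and 29626, 44354, 31495 and 24683 under MEKi. The Ugt sum was highest and the Aldh sum lowest in MEKi 4, and 1 gene carried much of each sum's spread. Ugt2b34 contributed 12854 of the Ugt reads in MEKi 4 and 4342 in control 1. Aldh1a3 contributed 14762 normalised reads to the Aldh sum in control 1 and 15991 in MEKi 2, but 1480 in MEKi 4. The Cyp sum ran from 13255 in MEKi 3 to 17791 in MEKi 4, and the Gst sum from 26549 in control 2 to 35317 in control 4. Together the 84 genes took 0.294% to 0.377% of the reads in genes.

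**Figure D5:**
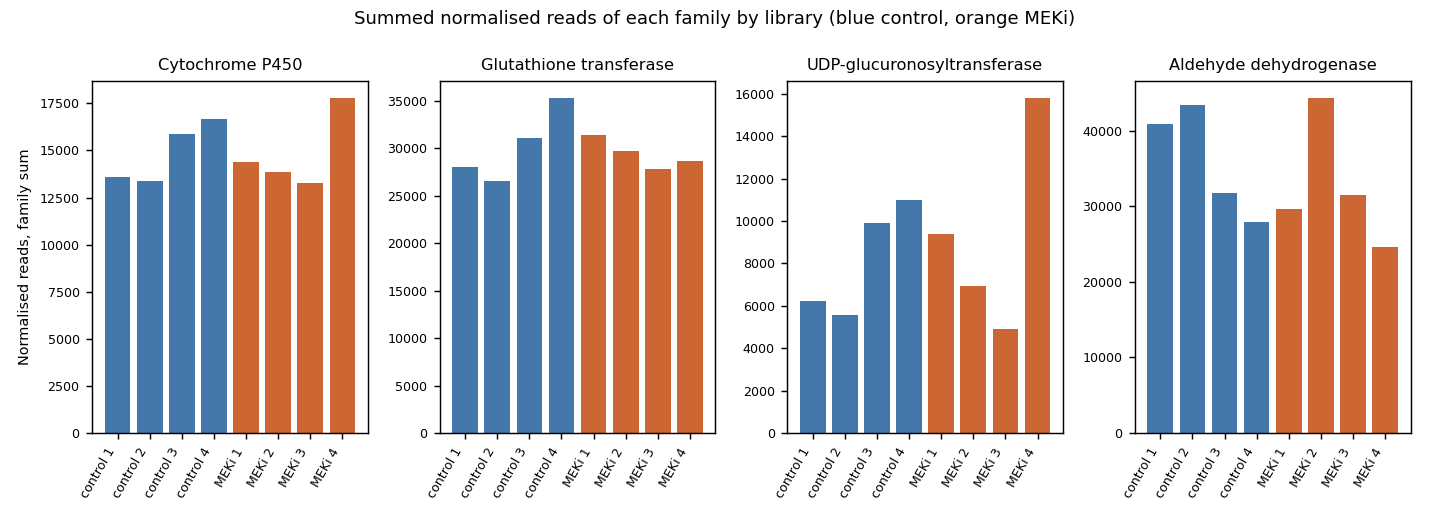
Sum of normalised reads over the genes of each family in each of the 8 libraries, 1 panel a family, blue for controls and orange for MEKi, with axes starting at 0. The Ugt sum reaches 15804 in MEKi 4, and the Aldh sum is lowest there at 24683.

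The genes around these enzymes, taken from textbook lists, gave 0 calls with limma in any list. Of 13 regulators measured, 1 had an unadjusted p under 0.05, the retinoic acid receptor Rarb, itself a retinoic acid target. Rarb read 7.00, 6.74, 6.97 and 6.62 in controls and 6.55, 6.55, 6.43 and 6.20 under MEKi, with no overlap and a difference of -0.40 (SE 0.14, limma adjusted p = 0.9996). The AHR gene itself, Ahr, ran from 11.04 to 11.47 and differed by -0.06 (SE 0.11), and the xenobiotic receptor PXR, Nr1i2, which had the same 4 low libraries as Aadac, differed by -0.04 (SE 0.30). Nfe2l2 had the reverse order, high at 12.71, 12.59, 12.73 and 12.52 in control 1, control 2, MEKi 2 and MEKi 3 and 12.11 to 12.42 in the others, with a difference of 0.03 (SE 0.17).

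Of the 7 genes of electron supply, 1 had a higher and 6 a lower MEKi mean, and Por, the reductase that feeds the P450 enzymes, differed by -0.23 (SE 0.19). Among 13 glutathione genes the median difference was -0.03, and Ggt1, which breaks down glutathione outside the cell, was 9.19 and 10.42 in controls 2 and 3, the acinar-rich libraries, and 6.29 to 7.46 in the others. Its difference of -1.63 (SE 0.73) was -0.31 with the acinar marker mean as a covariate. Of 24 other oxidising and hydrolysing enzymes, the carboxylesterase Ces1d had the smallest p, with a difference of -0.94 (SE 0.41) and its highest values, 8.15 and 7.33, in the same acinar-rich controls. The part of acinar cells in the Ggt1 and Ces1d values was not tested.

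Of 11 other conjugating enzymes, the sulfotransferase Sult1d1 was the one with an unadjusted p under 0.05 on the higher side. It read 6.44, 6.79, 7.23 and 6.95 in controls and 7.35, 7.22, 7.21 and 8.24 under MEKi, a difference of 0.65 (SE 0.26, adjusted p = 0.9996). Control 3 lay among the MEKi values and MEKi 4 was highest. Of 7 efflux pumps the smallest p was that of Abcc5, with a difference of 0.31 (SE 0.20), with MEKi 3 and 4 at 12.16 and 12.34 and the other libraries between 11.40 and 11.77.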

How the data were processed

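RNA-seq libraries of 4 control and 4 MEKi tumours were used. Per the submitters' processing notes the authors used STAR 2.5.3a, DESeq2 1.18.1 and GRCm38; no source used here gives the counting step. The deposited table holds variance-stabilised log2 values. Of 19431 rows, 32 naming no gene were dropped and 1 row was kept per symbol. Inverting the transformation gave whole reads (tolerance 0.01) for 100% of values in each library; dividing by relative size factors gave normalised reads. Differences were fitted with limma 3.58.1 (R 4.3.3; eBayes with trend, Benjamini-Hochberg over 19129 genes, no covariate, two-sided), with voom on the recovered reads as an alternative, and the fit was tested on simulated data. Tables and plots used Python 3.11.15, pandas 2.3.3 and matplotlib 3.10.9.

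The members and lists were chosen with earlier results of these data known. Named members were Aadac, any past the threshold, those without overlap, and per family the 4 with the highest mean, 3 with the smallest p and 3 with the widest span among genes above the median mean; per related list, the gene with the smallest p. Other genes named (Cyp2c65, Cyp4f14, Cyp26a1, Cyp11a1, Gsta1, Gstp2, Dusp6, Ahr, Nr1i2, Nfe2l2, Cyp4f13, Cyp4v3, the marker genes and those listed by order) were chosen after their values were seen. Acinar, hepatocyte, enterocyte, gastric, duct and adrenal marker lists are given beside the results; the fibroblast, macrophage, endothelium, adipocyte and keratinocyte lists had 0 calls and median differences of -0.35, -0.21, -0.21, 0.11 and 0.03.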

Additional observations from a re-analysis of the deposited data

Results flagged for a closer look

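Among the 168 groups of 4 libraries formed by the 84 members and the 2 labels, 6 held a library whose gap to its nearest neighbour took more of the group's range than the 95% critical value of Dixon's test for 4 samples, which is 3.57% of the groups. Chance flags about 1 in 20 groups. Of the members named by the rule above, 2 were among them. Cyp4f13, chosen after its values were seen, was flagged too, high in MEKi replicate 4 at 10.04, a gap of 0.889 of the range. Cyp26c1 was low in MEKi replicate 2, at 5.39 with the nearest library at 5.61, a gap of 0.887 of the range that rests on 1 read against 5 or more. Gstz1 was high in MEKi replicate 4, at 10.35 with the nearest library at 9.67, a gap of 0.881 of the range.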

How the results depend on the processing

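The number of members called stayed at 0 in each of the 18 other fits and with a minimum difference of 1, and the smallest adjusted p of a member over all fits was 0.984. The count over all genes, 1 in limma, was 0 with the 75% of genes of highest mean, 0 with the acinar covariate and 0 with the replicate block, and 0 to 2 with 1 library left out (2 without control 4). The labels do not say whether the replicate numbers pair the samples. Deviations from the group mean had correlations of -0.33, 0.20, -0.46 and 0.02 between same-numbered libraries. Such correlations cannot show whether a day, cage or batch was shared. With the replicate block 0 members were called and 4 had an unadjusted p under 0.05. The members' median difference ranged from -0.06 to 0.03 with 1 library left out. Of the 39 differences of genes named by the rule above, 21 turned sign in no fit. Genes chosen after their values were seen, Cyp2c65 and Cyp4f14 among them, were not in this count. The difference of Aldh2 turned to 0.011 with quantile normalization, 0.019 with aligned medians and 0.014 with array weights, and that of Gsto1 to 0.0014, 0.016 and 0.035. That of Cyp2j5 turned to -0.023 with array weights. With the acinar covariate Cyp2j6 was at 0.0060, Cyp39a1 at 0.090 and Gsta4 at -0.024. The cause was not tested. With 1 library left out, 18 turned, over these ranges: Aadac -0.22 to 0.97, Aldh1a1 -0.10 to 0.57, Aldh1a3 -0.95 to 0.18, Aldh2 -0.16 to 0.089, Cyp1b1 -0.23 to 0.085, Cyp21a1 -0.28 to 0.42, Cyp2j5 -0.30 to 0.35, Cyp2j6 -0.24 to 0.034, Cyp39a1 -0.27 to 0.13, Gsta3 -0.64 to 0.10, Gsta4 -0.035 to 0.11, Gstm1 -0.18 to 0.070, Gsto1 -0.090 to 0.10, Gstt1 -0.058 to 0.38, Ugt1a6a -0.10 to 0.18, Ugt1a7c -0.41 to 0.038, Ugt2b34 -0.14 to 0.44 and Ugt2b35 -0.049 to 0.37. Few reads limit Ugt8a, Cyp26c1 and Ugt2b5.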
